A study of Homo sapiens with 18 samples.

Results

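Parental K562 cells exposed to interferon alpha were compared with untreated parental K562 cells, across all genes of the count table. The comparison uses 4 of the series' 18 polyA-selected RNA-seq libraries, chosen by cell line and treatment labels: 2 from cells given recombinant human interferon alpha at 1000 U/mL for 24 h, and 2 from cells with no treatment. K562 is an established erythroleukaemia line from a patient with chronic myeloid leukaemia, and it carries the BCR-ABL1 fusion. The parental line is labelled with no dCas9 fusion and received no doxycycline, whereas the other 14 libraries come from K562 lines labelled K562[KRAB]-D9 and K562[VPR]-D9, in which doxycycline, 2 ug/mL in the labels' treatment protocol, induces dCas9-KRAB or dCas9-VPR. Of these, 4 libraries without doxycycline are compared below, K562[KRAB]-D9 with interferon alpha and K562[KRAB]-D9 without treatment, 2 each. The study's gene is SAMD9, which the K562[KRAB]-D9 line is built to repress and the K562[VPR]-D9 line to activate under doxycycline. Interferon alpha was used to induce SAMD9. The labels do not say whether replicate libraries came from separate cultures. The p-values therefore measure only the spread between replicate libraries, which may be technical. That spread was estimated over all 18 libraries in 9 groups, so groups outside the comparison also enter the p-values. More genes passed, higher and lower alike, in fits on only the parental libraries or without the K562[KRAB]-D9 interferon group, as given further below.

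Type I interferons bind a receptor made of IFNAR1 and IFNAR2, whose partner kinases JAK1 and TYK2 phosphorylate STAT proteins. The phosphorylated STATs join IRF9 in the complex ISGF3, which binds interferon-stimulated response elements (ISREs) near the start sites of interferon-stimulated genes. Their products block viral entry, translation and replication, raise antigen presentation on MHC class I, and feed back on the pathway, with USP18 among its main brakes. In haematopoietic cells type I interferons are also known for slowing growth, and interferon alpha has long been a treatment for chronic myeloid leukaemia.

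The ISRE core was searched as GAAANNGAAA or, on the other strand, TTTCNNTTTC in windows of 250 bases before to 50 bases after RefSeq gene starts, build GRCh38.p14. The windows of 7 genes on which the results below turn are printed here 5′ to 3′ on the gene's strand, with ISRE matches in capitals. They show a gene with adjoining matches, the gene of highest level per length, genes of the antiviral and antigen presentation groups, and the neighbours SAMD9 and SAMD9L.
ISG15, chr1:1013247-1013546, + strand: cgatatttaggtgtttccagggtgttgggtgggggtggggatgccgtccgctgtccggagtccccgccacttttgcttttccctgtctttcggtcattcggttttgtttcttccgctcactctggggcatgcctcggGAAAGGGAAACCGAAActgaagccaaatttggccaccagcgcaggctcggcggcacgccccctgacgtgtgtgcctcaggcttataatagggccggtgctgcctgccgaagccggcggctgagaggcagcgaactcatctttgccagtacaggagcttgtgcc
IFI6, chr1:27672143-27672442, - strand: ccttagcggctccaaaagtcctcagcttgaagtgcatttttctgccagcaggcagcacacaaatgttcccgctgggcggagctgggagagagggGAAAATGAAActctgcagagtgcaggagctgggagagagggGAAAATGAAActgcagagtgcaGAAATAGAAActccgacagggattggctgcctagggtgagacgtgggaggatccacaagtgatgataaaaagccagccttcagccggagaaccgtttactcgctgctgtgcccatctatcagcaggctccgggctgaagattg
IFIT1, chr10:89392373-89392672, + strand: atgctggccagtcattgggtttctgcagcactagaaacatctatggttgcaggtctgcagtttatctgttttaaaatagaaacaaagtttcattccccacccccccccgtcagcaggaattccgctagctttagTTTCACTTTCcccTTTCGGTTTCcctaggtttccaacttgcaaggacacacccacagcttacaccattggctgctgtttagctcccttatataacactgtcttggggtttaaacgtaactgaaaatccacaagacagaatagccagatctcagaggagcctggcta
IFI27, chr14:94110486-94110785, + strand: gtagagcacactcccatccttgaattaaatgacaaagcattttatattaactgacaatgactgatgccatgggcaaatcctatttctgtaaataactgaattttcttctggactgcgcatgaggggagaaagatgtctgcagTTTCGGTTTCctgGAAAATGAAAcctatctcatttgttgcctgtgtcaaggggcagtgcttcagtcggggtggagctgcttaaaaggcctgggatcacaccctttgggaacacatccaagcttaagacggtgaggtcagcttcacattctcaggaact
TAP1, chr6:32853655-32853954, - strand: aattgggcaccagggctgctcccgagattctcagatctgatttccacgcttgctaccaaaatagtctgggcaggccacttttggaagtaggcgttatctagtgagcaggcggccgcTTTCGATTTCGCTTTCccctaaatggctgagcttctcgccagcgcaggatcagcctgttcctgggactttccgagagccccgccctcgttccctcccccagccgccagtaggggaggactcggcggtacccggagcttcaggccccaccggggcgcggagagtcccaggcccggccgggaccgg
SAMD9, chr7:93117930-93118229, - strand: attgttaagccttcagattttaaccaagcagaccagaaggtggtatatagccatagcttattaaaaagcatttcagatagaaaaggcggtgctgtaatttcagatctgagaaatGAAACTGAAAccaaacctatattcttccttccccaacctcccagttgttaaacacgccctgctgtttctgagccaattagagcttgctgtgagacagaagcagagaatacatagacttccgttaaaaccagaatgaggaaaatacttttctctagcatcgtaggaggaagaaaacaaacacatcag
SAMD9L, chr7:93148336-93148635, - strand: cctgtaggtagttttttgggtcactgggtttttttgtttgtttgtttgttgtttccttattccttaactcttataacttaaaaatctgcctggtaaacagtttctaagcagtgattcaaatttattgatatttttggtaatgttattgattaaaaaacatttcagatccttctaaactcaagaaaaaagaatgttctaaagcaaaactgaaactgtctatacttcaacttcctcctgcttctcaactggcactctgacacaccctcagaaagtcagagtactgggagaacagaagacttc
In the ISG15 window the matches began 113 and 107 bases before the gene start and overlapped, and in the TAP1 window they began 134 and 128 bases before it and overlapped as well. The IFI6 window held 3 matches, beginning 156, 115 and 93 bases before the start. IFIT1 had matches 116 and 103 bases before its start, and IFI27 had matches 108 and 95 bases before it. The SAMD9 window held 1 match, 136 bases before the start, and the SAMD9L window held none. A match describes these letters and is not evidence of a bound site. A window without a match can still hold a form that differs by a letter or in spacing, which was not searched.

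The libraries with interferon alpha held 51.1 M and 49.9 M counted reads, and the untreated libraries 58 M and 51.7 M, within the 32.7 M to 63 M of all 18. All 11 K562 identity markers were detected, with summed levels of 2772 and 2853 CPM, counts scaled to a common library size, with interferon alpha and 2460 and 2472 CPM untreated, among them TFRC at 1321 and 1356 CPM with interferon alpha against 1118 and 1126 CPM untreated. Myeloid markers summed to 42.5 and 43.2 CPM with interferon alpha and 45.3 and 45.2 CPM untreated, nearly all of it LYZ, while MPO had at most 3 counts and ELANE none. Lymphoid markers summed to 9.65 and 10.8 CPM with interferon alpha and 8.59 and 7.70 CPM untreated. Megakaryocyte markers summed to 7.89 and 11.2 CPM with interferon alpha and 9.85 and 8.67 CPM untreated. Fibroblast and epithelial markers summed to 105 and 104 CPM with interferon alpha and 102 and 100 CPM untreated. Nearly all of that was EPCAM, at 98.8 and 96.0 CPM with interferon alpha and 95.4 and 94.6 CPM untreated. Mitochondrial genes took 3.55% and 3.32% of counts with interferon alpha and 4.27% and 4.42% untreated. Levels are per RNA sample, so fewer expressing cells and less RNA per cell cannot be told apart.

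Interferon alpha raised a compact set of genes by large factors and shifted a longer set by small ones. Of 22143 genes tested by edgeR's quasi-likelihood test, 960 (4.34%) were called at a Benjamini-Hochberg adjusted p below 0.05, 671 of them higher (3.03%) and 289 lower (1.31%). The rises reached far further than the falls: 161 genes (0.727%) rose over 2-fold and 17 (0.0768%) fell over 2-fold. With genes that had no counts in a group set at a floor of 3 counts per library, both counts stayed at 161 and 17, and 20 genes rose over 100-fold. Of the rises 426 (63.5%) were under 1.5-fold, and of the falls 263 (91.0%). The groups did not overlap, meaning both libraries with interferon alpha lay above or below both untreated ones, for 9679 genes (43.7%). In each fit that left out 1 of the 4 parental libraries fewer genes were called, higher and lower alike. Such a fit keeps 1 library in a group and loses power, so fewer calls alone do not show that a change rests on 1 library. The falls over 2-fold numbered 4 without interferon replicate 2, 9 without untreated replicate 2, 6 without untreated replicate 1 and 16 without interferon replicate 1. The called genes carried median changes of 0.41 (log2) among rises and 0.21 (log2) among falls, against a median of 0.0018 (log2) over all genes tested.

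The 161 genes that rose over 2-fold were often silent or near silent in untreated cells. Together they took 1.504% and 1.509% of scaled counts with interferon alpha, against 0.228% and 0.230% untreated. In untreated cells 14 of them had no counts and 84, these included, averaged under 1 CPM, while 29 were over 10 CPM and 5 over 100 CPM. With interferon alpha 38 of them exceeded 100 CPM. By type, 627 of the 671 rises were protein coding and 24 were lncRNA genes.

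**Figure D1:**
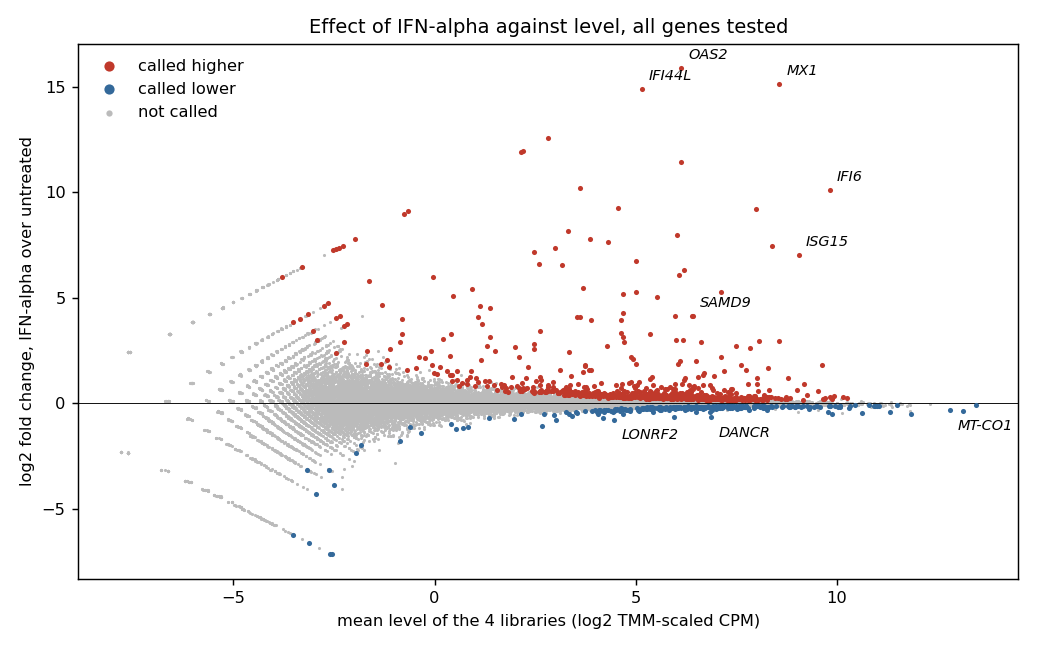
Log2 fold change with interferon alpha over untreated in parental K562 (vertical axis) against the mean log2 CPM of the 4 libraries (horizontal); each point is a gene, coloured by whether it was called higher, lower or neither. Fitted values of genes without counts in a group, such as OAS2, depend on the prior count and are no bound; 161 genes rose over 2-fold and 17 fell over 2-fold.

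The interferon genes themselves were not detected at a level that could be tested. Of 21 type I and type III interferon genes listed, 5 had rows in the table and 0 passed the filter on low counts, the most being 6 counts of IFNK in 1 library with interferon alpha. The receptor chains and kinases did not pass the test. IFNAR1, the low-affinity receptor chain, had 88.9 and 91.2 CPM with interferon alpha and 91.4 and 88.9 CPM untreated, and the groups overlapped. IFNAR2, the chain that first binds the ligand, had 1.47 and 1.71 CPM with interferon alpha and 1.26 and 1.52 CPM untreated, overlapping too. JAK1 had 89.8 and 89.7 CPM with interferon alpha and 90.1 and 92.3 CPM untreated, and TYK2 had 111 and 119 CPM with interferon alpha and 108 in each untreated library. None of these 4 genes was called in either direction.

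Below the receptor, the ISGF3 subunits STAT2 and IRF9 rose. STAT2 had 105 CPM in each library with interferon alpha and 45.9 and 45.1 CPM untreated (log2 1.20 ± 0.05, SE). IRF9, which gives ISGF3 its DNA specificity, had 7.26 and 6.94 CPM with interferon alpha and 1.49 and 1.60 CPM untreated (log2 2.20 ± 0.20). The groups did not overlap in either gene. IRF7, the factor that drives transcription of the interferon alpha genes themselves, had 46.7 and 51.2 CPM with interferon alpha and 3.15 and 1.90 CPM untreated. Its log2 change was 4.26 ± 0.13 (adjusted p = 1.59e-26, edgeR quasi-likelihood test), the largest among the receptor and signalling genes. IRF1 rose less, with 13.1 and 11.2 CPM with interferon alpha against 8.50 and 7.58 CPM untreated (log2 0.59 ± 0.13). STAT3 rose by 0.19 ± 0.04 (log2), with 241 and 261 CPM with interferon alpha against 224 and 218 CPM untreated. Each of these 2 calls was lost in 2 of the 4 fits that left out a library. In all, 6 of 22 tested receptor, JAK, STAT and IRF genes rose and 0 fell, with a median of 0.11 (log2). Of all genes 3.03% were called higher.

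Among 16 negative regulators 2 rose and 1 fell, with a median of -0.0041 (log2), where 3.03% of all genes were called higher and 1.31% lower. USP18, the protease that removes ISG15 from proteins and also blocks IFNAR2 signalling, had 64.1 and 63.4 CPM with interferon alpha and 0.864 and 0.303 CPM untreated. Its log2 change was 6.73 ± 0.34 (adjusted p = 4.42e-07, edgeR quasi-likelihood test). It was 7.71 without untreated replicate 1 and 6.20 without untreated replicate 2. The near-identical copy USP41 had 68 and 55 counts with interferon alpha and none untreated, at least 22.1-fold higher at a floor of 3 counts per library, and reads of these copies may have been split between them. NMI, an interferon-inducible partner of STATs, had 115 and 106 CPM with interferon alpha against 61.3 and 65.3 CPM untreated (log2 0.80 ± 0.06). SOCS2 fell, with 118 and 113 CPM with interferon alpha and 137 and 143 CPM untreated (log2 -0.28 ± 0.05, adjusted p = 7.36e-05, edgeR quasi-likelihood test). The cytokine signalling suppressors SOCS1 and SOCS3 did not pass the test. SOCS1 had 7.12 and 9.60 CPM with interferon alpha and 8.68 and 8.14 CPM untreated, and SOCS3 had 20.1 and 21.7 CPM with interferon alpha and 16.9 CPM in each untreated library.

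**Figure D2:**
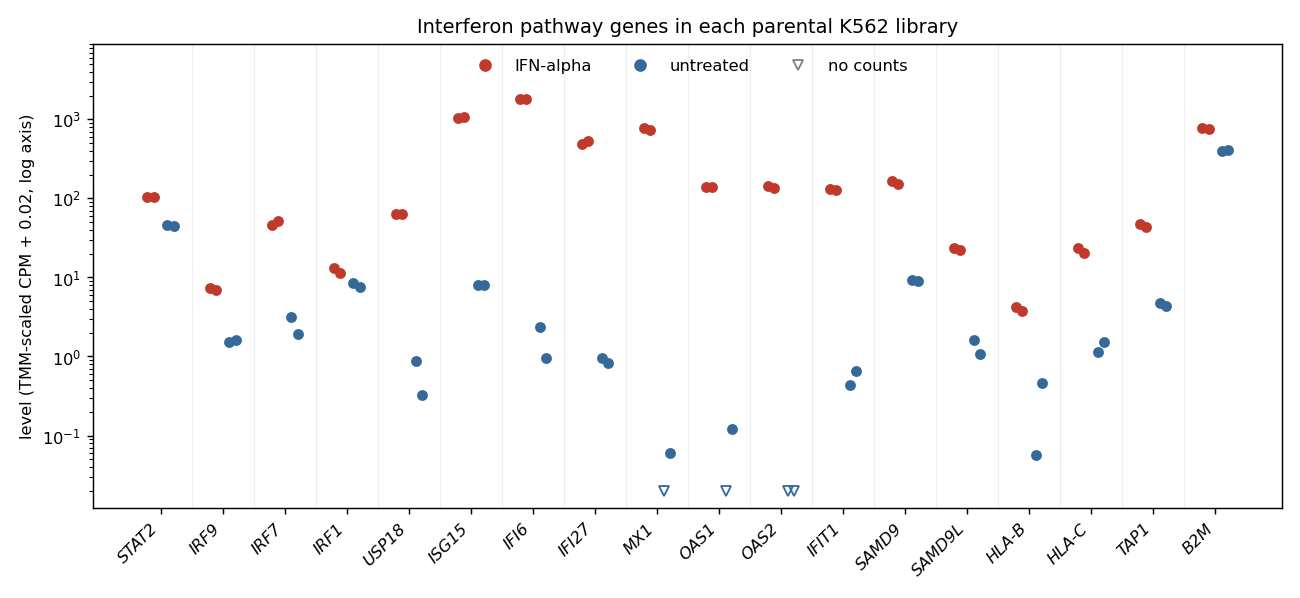
Levels of key genes in each of the 4 parental libraries, in CPM plus 0.02 on a log axis; points are single libraries with interferon alpha (left of each pair) or untreated (right), and open triangles mark libraries with no counts. No gene's groups overlap; OAS2 has no untreated counts, and the distance is least for IRF1 and B2M.

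Antiviral effectors, the proteins that act on viruses themselves, rose with few exceptions. Of 51 tested, 44 rose, 37 of them over 2-fold, and 0 fell, against 3.03% of all genes called higher; their median was 3.0 (log2). Members that did not pass the test included SLFN12, SLFN13, APOBEC3D, IFI27L2, MARCHF8 and NT5C3A.

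Among those that rose were the 2-5A synthetases. OAS2 had 7104 and 6475 counts, or 145 and 135 CPM, with interferon alpha and none untreated, at least 2441-fold higher at the floor of 3 counts per library. OAS1 had 140 and 138 CPM with interferon alpha, against 0 and 0.101 CPM, or 5 counts, untreated (log2 11.44 ± 0.16, and 10.39 without untreated replicate 1, which had no counts). For genes with so few untreated counts, here and below, the SE can understate the counting error. OAS3 had 655 and 673 CPM with interferon alpha and 3.73 and 3.88 CPM untreated (log2 7.45 ± 0.08, adjusted p = 9.36e-36, edgeR quasi-likelihood test). The 3 genes lie side by side on chromosome 12, and in each the treated libraries stood far above the untreated ones.

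MX1, a dynamin-like GTPase that traps incoming viral ribonucleoproteins, was almost absent from untreated cells. It had 38061 and 35460 counts, or 776 and 739 CPM, with interferon alpha and 0 and 2 counts untreated. The ratio of levels was 39788, with an exact 95% counting interval of 11014 to 328550. IFI44L, with 72.0 and 70.4 CPM with interferon alpha and no untreated counts, was at least 1243-fold higher, and IFI44, with 9.36 and 8.37 CPM with interferon alpha and no untreated counts, was at least 155-fold higher. XAF1, which counters the apoptosis inhibitor XIAP, had 24.6 and 24.8 CPM with interferon alpha against 0 and 0.0404 CPM untreated, a ratio of 1297 with a counting interval of 359 to 10713. These intervals and floors cover counting error only, since no molecular identifiers are described.

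IFI6 and IFI27, small hydrophobic membrane proteins, reached high levels. IFI6 had 1816 and 1813 CPM with interferon alpha and 2.36 and 0.929 CPM untreated (log2 10.07 ± 0.23, 10.93 without untreated replicate 1 and 9.59 without untreated replicate 2). Per kilobase it stood at 1938 CPM with interferon alpha against 1.76 CPM untreated, the highest treated level per length of any gene called higher. IFI27 had 491 and 525 CPM with interferon alpha and 0.936 and 0.808 CPM untreated (log2 9.18 ± 0.08, adjusted p = 4.77e-45, edgeR quasi-likelihood test). The IFIT proteins, which bind foreign RNA ends and halt its translation, also rose: IFIT1 had 134 and 126 CPM with interferon alpha against 0.414 and 0.626 CPM untreated (log2 7.97 ± 0.14). IFIT3 had 145 CPM in each library with interferon alpha against 1.58 and 2.08 CPM untreated (log2 6.31 ± 0.11). IFIT5 rose by 8.16 ± 0.33 (log2), or by 9.01 without untreated replicate 2 and 7.58 without untreated replicate 1.

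Other members started from clear untreated levels and rose by smaller factors. EIF2AK2, the RNA-activated kinase PKR that stops translation initiation, had 408 and 380 CPM with interferon alpha against 64.2 and 67.0 CPM untreated (log2 2.59 ± 0.05). BST2, which tethers budding virions, had 476 CPM in each library with interferon alpha against 151 and 155 CPM untreated (log2 1.64). IFITM1, which blocks viral fusion at the cell surface, had 1224 and 1248 CPM with interferon alpha against 346 and 357 CPM untreated (log2 1.81 ± 0.04). Per kilobase IFITM1 stood at 742 CPM with interferon alpha and 211 CPM untreated, and its groups did not overlap. RSAD2 (viperin) and CMPK2, neighbours that together act on nucleotide pools, rose by 6.09 ± 0.14 and 3.0 ± 0.06 (log2).

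SAMD9 and SAMD9L, paralogous antiviral and growth-restraining genes that lie in tandem on chromosome 7, rose by near-equal factors. SAMD9 (ENSG00000205413.8, chr7:93099513-93118023, GRCh38) had 168 and 154 CPM with interferon alpha and 9.31 and 9.05 CPM untreated. Its mean was 161 ± 9.26 CPM with interferon alpha and 9.18 ± 0.183 CPM untreated (SD, n = 2 each), 17.5-fold higher, a log2 change of 4.13 ± 0.07 (SE; adjusted p = 9.36e-28, edgeR quasi-likelihood test). SAMD9L (ENSG00000177409.12, chr7:93130056-93148385, GRCh38) had 23.5 and 22.5 CPM with interferon alpha and 1.60 and 1.07 CPM untreated. Its log2 change was 4.09 ± 0.17, or 17.1-fold, and neither gene's groups overlapped. Levels differed more than factors did: per kilobase SAMD9 stood at 23.5 CPM with interferon alpha and 1.34 CPM untreated, and SAMD9L at 3.22 CPM with interferon alpha and 0.187 CPM untreated. Both calls held in every alternative run, libraries left out included.

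Genes of foreign nucleic acid sensing, regulators and partners included, rose in part. Of 22 tested 10 rose and 0 fell, against 3.03% of all genes called higher, with a median of 0.88 (log2). The 10 include DTX3L, the partner of PARP9, which is not itself a sensor (log2 3.01 ± 0.06). IFIH1 (MDA5), which detects long double-stranded RNA, had 61.4 and 63.7 CPM with interferon alpha and 1.80 and 1.43 CPM untreated (log2 5.26 ± 0.14). DHX58 (LGP2), its regulator, had 24.9 and 25.8 CPM with interferon alpha and 0.486 and 0.687 CPM untreated (log2 5.44). DDX58 (RIG-I), which detects RNA with 5′ triphosphates, had 2.98 and 2.33 CPM with interferon alpha and 0.054 and 0.101 CPM untreated (log2 5.08). ADAR, which edits double-stranded RNA and so hides it from these sensors, rose by 1.19 ± 0.04 (log2), with 607 and 620 CPM with interferon alpha and 275 and 260 CPM untreated. The adaptor MAVS did not pass the test, with 127 and 129 CPM with interferon alpha and 136 and 131 CPM untreated, and neither did TBK1, STING1 or the DNA sensor CGAS. CGAS had 14 and 10 counts with interferon alpha and 15 and 4 counts untreated.

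Of 8 tested genes for ISG15 and the enzymes that attach or remove it, USP18 included, 7 rose, with a median of 4.96 (log2). The share called higher over all genes was 3.03%. ISG15 itself had 1043 and 1075 CPM with interferon alpha and 8.12 and 8.08 CPM untreated (log2 7.03 ± 0.06, adjusted p = 4.77e-45, edgeR quasi-likelihood test). The activating enzyme UBA7 had 9.56 and 10.0 CPM with interferon alpha and 1.58 and 1.25 CPM untreated (log2 2.78), and the conjugating enzyme UBE2L6 had 123 and 117 CPM with interferon alpha and 7.22 and 6.34 CPM untreated (log2 4.14 ± 0.07). The neighbouring ligase genes HERC6 and HERC5 both rose. HERC6 had 48.0 and 46.3 CPM with interferon alpha and 0.072 and 0.0808 CPM untreated (log2 9.23 ± 0.21). Its untreated libraries held 4 counts each, so this SE can understate the counting error. HERC5, the main human ISG15 ligase, stayed low, with 23 and 39 counts with interferon alpha and 1 and 0 counts untreated, a ratio of 67.1 with an exact 95% counting interval of 11.6 to 2693, yet passed the test (adjusted p = 0.017, edgeR quasi-likelihood test). ARIH1 did not pass, with 83.1 and 81.2 CPM with interferon alpha and 89.2 and 86.8 CPM untreated.

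In the PARP, TRIM, PML body and APOL families some members rose and others did not. Over all genes 3.03% were called higher and 1.31% lower. Of 16 tested PARP genes 5 rose, with a median of 0.08 (log2): PARP9, which with its partner DTX3L modifies histones and viral proteins, had 165 and 161 CPM with interferon alpha against 8.41 and 10.2 CPM untreated (log2 4.14 ± 0.08). PARP14 had 178 and 170 CPM with interferon alpha against 22.2 and 24.0 CPM untreated (log2 2.92 ± 0.05), and PARP10 rose by 5.19 ± 0.14 (log2). ZC3HAV1, the zinc-finger antiviral protein, rose by 0.43 (log2). Of 19 tested TRIM genes 9 rose, with a median of 0.60 (log2). TRIM22 had 19.7 and 16.1 CPM with interferon alpha against 0.216 and 0.162 CPM untreated (log2 6.54 ± 0.24), and TRIM25, the ligase that activates RIG-I, had 320 and 318 CPM with interferon alpha against 105 and 112 CPM untreated (log2 1.55). Of 8 genes of PML nuclear bodies 6 rose, with a median of 1.53 (log2): SP110 rose by 2.89 ± 0.09, SP100 by 1.83 and PML by 1.23 (log2), while DAXX did not pass. Of 5 APOL genes 4 rose, with a median of 0.98 (log2), and APOL4 fell by 0.28 (log2). APOL6, an intracellular lipid-binding member, had 17.9 and 16 CPM with interferon alpha against 2.99 and 3.45 CPM untreated (log2 2.40).

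Genes of MHC class I presentation rose in 16 of 21 tested cases with 0 falls, against 3.03% of all genes called higher. The median was 0.83 (log2). HLA-C had 23.7 and 20.6 CPM with interferon alpha and 1.13 and 1.52 CPM untreated (log2 4.07 ± 0.19, adjusted p = 1.13e-19, edgeR quasi-likelihood test). HLA-B had 4.16 and 3.77 CPM with interferon alpha and 0.036 and 0.444 CPM untreated (log2 4.08 ± 0.50). Reads of HLA genes can be split between similar copies and map poorly where alleles differ from the reference sequence, so their levels are uncertain. B2M, the invariant light chain, had 777 and 748 CPM with interferon alpha and 395 and 409 CPM untreated (log2 0.92 ± 0.04).

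The peptide supply for class I rose as well. TAP1, a subunit of the peptide transporter, had 47.0 and 43.3 CPM with interferon alpha and 4.70 and 4.28 CPM untreated (log2 3.33 ± 0.13). The immunoproteasome subunit PSMB9 had 12.4 and 9.94 CPM with interferon alpha and 0.792 and 1.29 CPM untreated (log2 3.43), and PSMB8 had 4.92 and 4.46 CPM with interferon alpha and 0.324 and 0.768 CPM untreated (log2 3.12). The constitutive proteasome was different: 0 of 14 tested subunits were called in either direction by edgeR's quasi-likelihood test or by DESeq2, 3 had an unadjusted p under 0.05, and the median was 0.07 (log2). NLRC5, the class I transactivator, had 4 and 16 counts with interferon alpha and 2 and 0 counts untreated, and did not pass the test.

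In groups often tied to interferon gamma or to immune cells no more than 2 members per list were called, where 3.03% of all genes were called higher. Of 9 class II presentation genes 1 rose, the protease CTSS, with 14.5 and 16.2 CPM with interferon alpha against 10.9 and 10.8 CPM untreated (log2 0.51 ± 0.09), and the median was 0.60 (log2). Of 8 guanylate-binding protein genes 0 were called by edgeR's quasi-likelihood test or DESeq2 and 0 had an unadjusted p under 0.05, with a median of 0.36 (log2), or 0.016 with genes lacking counts in a group set at their bound. GBP1 had 3 counts in each library with interferon alpha and 0 in each untreated one. GBP2 had 0.999 and 0.646 CPM with interferon alpha and 1.08 and 0.929 CPM untreated. Of 13 chemokine and cytokine genes 2 rose, with a median of 0.27 (log2): TNFSF13B (BAFF, a B cell survival factor) by 1.70 ± 0.30 and IL15RA by 0.87 (log2). CXCL10 had 12 and 17 counts with interferon alpha and none untreated, and did not pass (adjusted p = 0.104, edgeR quasi-likelihood test).

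Of 25 death ligands, receptors and effectors 4 rose, with a median of 0.05 (log2), where 3.03% of all genes were called higher. TNFSF10 (TRAIL) had 4.08 and 3.04 CPM with interferon alpha and 0.828 and 0.929 CPM untreated (log2 2.02 ± 0.39). MLKL, the effector of necroptosis, had 7.71 and 7.81 CPM with interferon alpha and 3.44 and 3.98 CPM untreated (log2 1.07). Among 16 immune surface genes 5 rose, with a median of 0.30 (log2), led by LGALS9 (galectin-9), with 24.5 and 31.2 CPM with interferon alpha and 1.96 and 1.62 CPM untreated (log2 3.95 ± 0.14). The NKG2D ligands MICA and MICB, which mark stressed cells for killing, rose by 0.31 and 0.35, the adhesion gene ICAM2 by 0.40 and NECTIN2 by 0.47 (log2). SIGLEC1, a sialic acid-binding receptor best known on macrophages, had 24 and 25 counts with interferon alpha and none untreated, at least 8.81-fold higher. Of 13 complement genes 2 rose, C4B and C3, with a median of 0.996 (log2), or 0.23 to 0.72 with a library left out. The C4B call was lost without interferon replicate 2 or untreated replicate 1 and the C3 call without untreated replicate 1, and C4B may share reads with a near-identical copy.

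Noncoding genes rose next to coding targets and apart from them. The pseudogene ERVWE2 on the X chromosome had 683 and 700 counts with interferon alpha and none untreated, at least 249-fold higher. RP11-288L9.4 and LINC02574 overlap IFI6, and rose at least 160-fold and 20.5-fold from no untreated counts. The library kit keeps strand, but the strand setting of the counting is not given in the sources used here, so reads of overlapping genes may not have been told apart. LINC01285 had 84 and 103 counts with interferon alpha and 0 and 3 counts untreated, a ratio of 67.5 with an exact 95% counting interval of 22.7 to 330. Of 7 listed noncoding genes tied to interferon 2 rose, against 3.03% of all genes called higher, with a median of -0.01 (log2). NRIR and BISPR, lncRNAs beside CMPK2 and BST2, rose by 2.48 ± 0.35 and 1.81 ± 0.11 (log2). Of 26 noncoding genes that rose over 2-fold 5 overlapped a coding gene that rose over 2-fold, and 6 more lay within 50 kb of one. The same shares among other noncoding genes were not computed.

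Of 135 coding genes that rose over 2-fold 53 lay in 23 runs whose neighbours were under 100 kb apart. The share for an equal number of other tested coding genes was not computed. The run with most members held LIPA, IFIT2, IFIT3, IFIT1 and IFIT5 at chr10:89213569-89421605 (GRCh38). The MHC run held TAP2, PSMB8, PSMB9 and TAP1 at chr6:32821833-32859851, and SAMD9 with SAMD9L formed a run at chr7:93099513-93148385. Other runs were OAS1, OAS3 and OAS2, MX2 and MX1, CMPK2 and RSAD2, HERC6 and HERC5, DDX60 and DDX60L, and PARP9 and DTX3L.

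**Figure D3:**
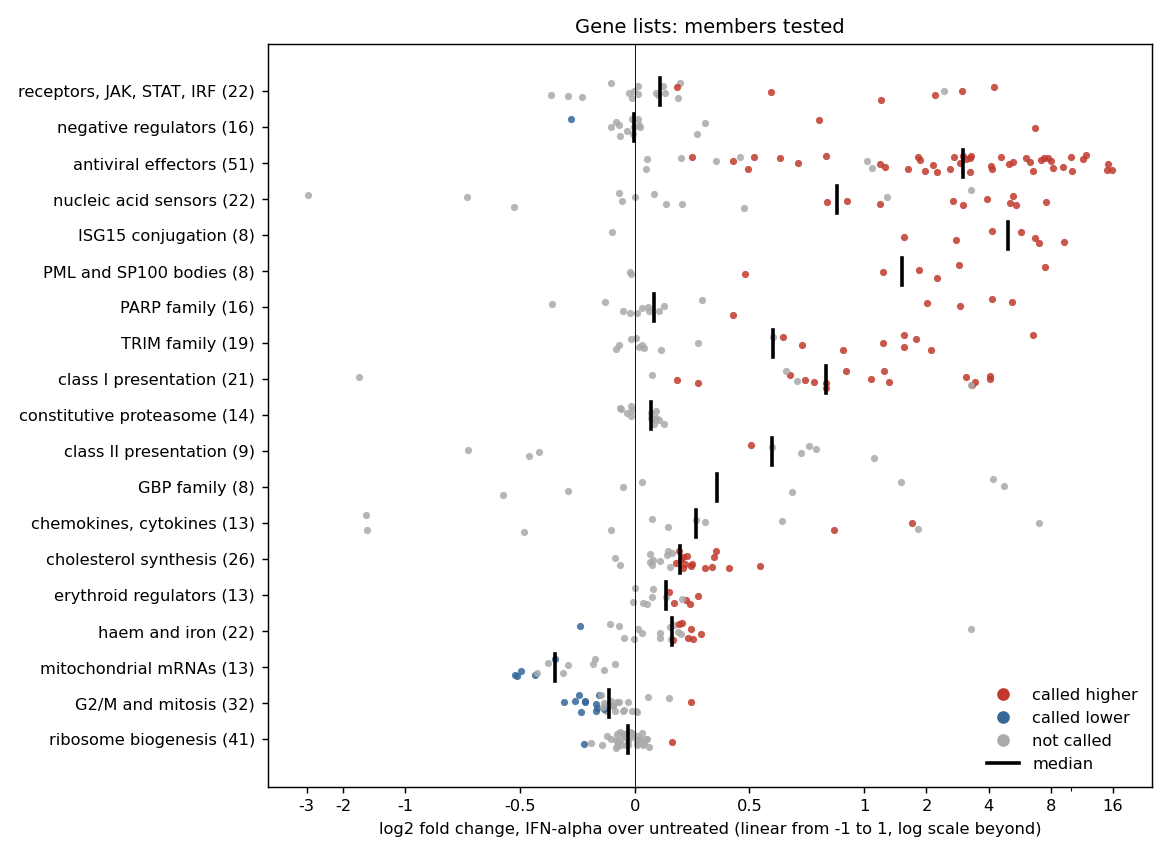
Log2 fold change with interferon alpha over untreated in parental K562 for the tested members of each gene list (horizontal axis, linear near 0 and logarithmic beyond); points are genes, red when called higher and blue when called lower, each list's number tested stands in brackets, and a bar marks its median. Fitted values of genes without counts in a group depend on the prior count. Antiviral effectors, the ISG15 conjugation genes and class I presentation extend to the right, while the constitutive proteasome lies near 0 and the mitosis and mitochondrial genome lists lie mostly left of 0.

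ISRE matches were concentrated in the windows of genes that rose most. Of the 22143 tested genes 12760 had a RefSeq window, and 503 of these (3.94%) held at least 1 match; over all 35116 RefSeq windows the share was 3.57%. Among genes called higher the share was 51.0% (26 of 51) for rises over 8-fold, 36.2% (21 of 58) for rises of 2- to 8-fold, and 6.5% (26 of 400) for smaller rises, by fitted fold change. Among genes called lower it was 4.23% (9 of 213), and among genes not called 3.5% (421 of 12038). The STAT dimer motif GAS, TTCNNNGAA on either strand, was in a window of 17.6% of genes with rises over 8-fold, 13.8% of those with rises of 2- to 8-fold, 8.46% of genes not called and 8.54% of all tested genes with a window; counted over all windows the share was 7.66%. The windows printed above for ISG15, IFI6, IFIT1, IFI27, TAP1 and SAMD9 are among the matches. SAMD9L, without an exact match in its window, rose by 4.09 (log2), close to SAMD9. GBP1, with 1 match beginning 127 bases before its start, had no more than 3 counts in any parental library. By list, 21 of 37 antiviral effector genes with a window (56.8%) and 11 of 17 class I genes (64.7%) had a match, and 0 of 16 receptor and signalling genes.

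**Figure D4:**
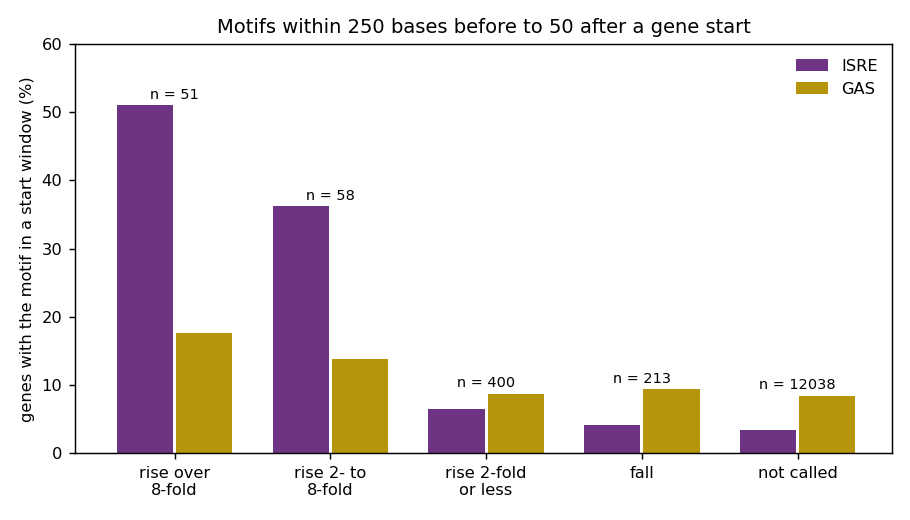
Percentage of genes with at least 1 ISRE match and with at least 1 STAT dimer match (GAS) in a promoter window (vertical axis, from 0), among genes with a window that rose over 8-fold (n = 51), rose 2- to 8-fold (n = 58), rose up to 2-fold (n = 400), fell (n = 213) or were not called (n = 12038). The ISRE share was 51.0% for the largest rises and between 3.5% and 6.5% in the last 3 classes.

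Outside the interferon lists, called changes were mostly under 2-fold. In sterol metabolism 15 of 26 tested cholesterol synthesis and uptake genes rose and 0 fell, against 3.03% of all genes called higher, with a median of 0.20 (log2). HMGCS1, which makes HMG-CoA for the pathway, had 304 and 319 CPM with interferon alpha and 212 and 214 CPM untreated (log2 0.55 ± 0.04, adjusted p = 1.84e-12, edgeR quasi-likelihood test). MSMO1, a demethylating enzyme of sterol synthesis, rose by 0.41 (log2). INSIG1, the sterol-regulated brake on this pathway, rose by 0.34 (log2). Outside that list, the fatty acid desaturases SCD and FADS1 rose by 0.33 and 0.27 (log2), among 4 of 14 further lipid genes that rose. Of 19 genes of the cholesterol list with a window 0 had an ISRE match.

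Erythroid genes rose in part: 2 of 11 globin genes, 7 of 22 haem and iron genes, 4 of 19 red cell membrane genes and 5 of 13 erythroid transcription factors, with medians of 0.31, 0.16, 0.08 and 0.14 (log2), against 3.03% of all genes called higher, while the iron regulatory protein gene ACO1 fell by 0.24 (log2). HBD, the delta globin gene, had 52.3 and 60.2 CPM with interferon alpha and 24.0 and 27.9 CPM untreated (log2 1.12 ± 0.09, adjusted p = 3.53e-13, edgeR quasi-likelihood test). HBZ, the embryonic zeta globin, had 139 and 151 CPM with interferon alpha and 96.4 and 95.5 CPM untreated (log2 0.60 ± 0.12), a call lost without any 1 of the 4 libraries. Globin genes have near-identical copies, so these levels are uncertain. GATA1, the master erythroid factor, had 215 and 224 CPM with interferon alpha and 197 and 200 CPM untreated (log2 0.15), and KLF1 rose by 0.24 (log2), a call lost without interferon replicate 2 or untreated replicate 2. Among the haem and iron genes TFRC, the transferrin receptor, rose by 0.25 (log2). RHD and RHCE, the Rhesus antigen genes, rose by 0.59 and 0.36 (log2), though reads may be split between these close copies. Of 12 myeloid genes 1 rose, CD33, a sialic acid-binding receptor of myeloid progenitors, with 28.3 and 27.3 CPM with interferon alpha and 19.8 and 18.1 CPM untreated (log2 0.55 ± 0.07), and of 12 lymphoid genes 0 were called by edgeR's quasi-likelihood test, 3 had an unadjusted p under 0.05 and DESeq2 called 1 lower.

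Some genes of the mitotic machinery fell slightly. Of 32 tested 11 fell and 1 rose, with a median of -0.11 (log2), against 1.31% of all genes called lower. CDC20, which activates the anaphase-promoting complex, had 202 and 200 CPM with interferon alpha and 250 and 248 CPM untreated (log2 -0.31 ± 0.04, adjusted p = 4.72e-06, edgeR quasi-likelihood test). CCNB1, the mitotic cyclin, had 271 and 266 CPM with interferon alpha and 309 and 313 CPM untreated (log2 -0.21), and the kinase gene PLK1 had 179 and 178 CPM with interferon alpha and 208 and 213 CPM untreated (log2 -0.24 ± 0.05). FAM83D, a spindle protein gene, was the 1 that rose, by 0.25 (log2). Of 31 genes of the G1 to S transition 1 rose and 1 fell, with a median of -0.03 (log2). MYC, a driver of growth in this leukaemia, had 277 and 283 CPM with interferon alpha and 251 and 249 CPM untreated (log2 0.16), a call lost in 3 of the 4 fits that left out a library.

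Transcripts of the mitochondrial genome were lower with interferon alpha. Of 13 tested 5 were called lower and 0 higher, with a median of -0.35 (log2), against 1.31% of all genes called lower. All 13 changes were negative, 11 had an unadjusted p under 0.05, and DESeq2 called 8 lower. MT-CO1, a subunit of cytochrome c oxidase, had 6630 and 6186 CPM with interferon alpha and 8146 and 8164 CPM untreated (log2 -0.35 ± 0.04, adjusted p = 3.78e-07, edgeR quasi-likelihood test). MT-CYB had 1331 and 1283 CPM with interferon alpha and 1823 and 1857 CPM untreated (log2 -0.49 ± 0.08). MT-ND1 did not pass, with 2235 and 2138 CPM with interferon alpha and 2281 and 2355 CPM untreated. PNPT1, an interferon-inducible exoribonuclease of mitochondria, had 300 and 283 CPM with interferon alpha and 155 and 156 CPM untreated (log2 0.91 ± 0.04), and it was the 1 of 20 genes of mitochondrial transcription and upkeep that rose. Genes of the mitochondrial genome, called ones outside the 13 such as MT-TV included, accounted for 7090 of the 15111 CPM that the 289 genes called lower lost in sum. The 671 genes called higher gained 23232 CPM.

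The largest falls among genes of at least 1 CPM were modest. LINC00641, a lncRNA, had 3.92 and 4.21 CPM with interferon alpha and 8.54 and 8.85 CPM untreated (log2 -1.10 ± 0.16, adjusted p = 7e-06, edgeR quasi-likelihood test). LONRF2 had 16 and 16.6 CPM with interferon alpha and 28.8 and 27.4 CPM untreated (log2 -0.78 ± 0.09). ZMAT3, which shapes splicing and RNA stability and is a p53 target in cells that have p53, had 14.0 and 13.6 CPM with interferon alpha and 22.6 and 22.4 CPM untreated (log2 -0.70 ± 0.09). DANCR, a snoRNA host gene, had 90.9 and 90.4 CPM with interferon alpha and 145 and 147 CPM untreated (log2 -0.68 ± 0.05), and the neuronal small RNA gene BCYRN1 fell by 0.66 (log2). The remaining 7 of the 12 largest falls were LY6G5C, PITPNA-AS1, MT-TV, SPRED3, FAM172A, TSPOAP1 and UBL3, between -1.21 and -0.57 (log2), with SPRED3 at -0.998, or -0.55 to -1.63 with a library left out. With single libraries left out, the calls of PITPNA-AS1, MT-TV and UBL3 were lost in each of the 4 fits, those of LY6G5C and SPRED3 in 3, that of TSPOAP1 in 2 and that of FAM172A in 1. Several of the 17 falls over 2-fold were of sparse genes, such as ZSCAN18 with no counts with interferon alpha against 13 and 22 untreated.

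In the remaining lists no more than 3 members per list were called, where 3.03% of all genes were called higher and 1.31% lower. In a short list a few calls can exceed these shares. Of 41 ribosome biogenesis genes MYC rose and UTP20 fell, by 0.22 (log2), and of 20 snoRNA host genes DANCR, SNHG3 and SNHG29 fell. Among those 20 host genes 17 changes were negative and 10 had an unadjusted p under 0.05, with a median of -0.11 (log2). Of 28 genes of the integrated stress response DDIT4 rose by 0.53 and HSPA5 by 0.24 (log2). Of 21 NF-kB targets IRF1 and NFKB2 rose, and of 19 genes known as p53 targets BTG2 rose by 0.25 (log2) while ZMAT3 and CCNG1 fell. K562 is p53-null, so these calls are no measure of p53 activity. WARS1, the tryptophanyl-tRNA synthetase, was the 1 of 4 tryptophan genes that rose, with 251 and 252 CPM with interferon alpha and 202 and 199 CPM untreated (log2 0.33). The medians of these 6 lists lay between -0.11 and 0.05 (log2). Of 10 fibroblast and epithelial genes KRT19 rose by 0.35 and VIM fell by 0.25 (log2), of 11 genes around BCR-ABL1 signalling MYC rose and PIM2 fell by 0.15 (log2), and of 11 megakaryocyte genes NFE2, also an erythroid factor, rose by 0.17 (log2). With single libraries left out, the BTG2 call was lost in each of the 4 fits, those of DDIT4, NFE2 and PIM2 in 3, those of CCNG1, NFKB2 and SNHG3 in 2 and that of UTP20 in 1.

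The K562[KRAB]-D9 line without doxycycline received the same interferon alpha dose and has its own untreated libraries, so the difference between the responses of both lines can be tested. Of the 161 genes that rose over 2-fold in parental cells 123 were also called higher in K562[KRAB]-D9 cells. The difference between the responses was called for 67 genes (0.303%), with 35 (0.158%) more positive and 32 (0.145%) more negative in parental cells, and for 21 of the 161. Of the 782 smaller changes called in parental cells 720 had the same sign in K562[KRAB]-D9 cells, 387 were called there in the same direction, and 20 differed. These counts depended on single libraries. Without K562[KRAB]-D9 interferon replicate 2 there were 621 more positive and 371 more negative, and in that group replicate 1 is the shallowest of all 18 and the replicates differed most. Without interferon replicate 1 of the parental cells there were 68 and 37, without their interferon replicate 2 there were 8 and 12, and without their untreated replicates 22 and 23 (replicate 1) or 12 and 14 (replicate 2). Without the untreated K562[KRAB]-D9 replicates there were 22 and 15 (replicate 1) or 11 and 20 (replicate 2).

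SAMD9 and SAMD9L rose less in parental cells than in K562[KRAB]-D9 cells, the line built to repress SAMD9 under doxycycline. The libraries compared received no doxycycline, and any effect of the repressor without it was not tested. SAMD9 averaged 161 CPM with interferon alpha and 9.18 CPM untreated in parental cells, against 54.2 CPM with interferon alpha and 0.557 CPM untreated in K562[KRAB]-D9 cells. The difference in log2 response was -2.42 ± 0.19 (adjusted p = 3.19e-09, edgeR quasi-likelihood test), and parental cells had the higher SAMD9 level both with and without interferon alpha. Without untreated K562[KRAB]-D9 replicate 1 the difference was -3.08, and without replicate 2 it was -2.04. SAMD9L averaged 23.0 CPM with interferon alpha and 1.34 CPM untreated in parental cells, against 34.5 CPM with interferon alpha and 0.380 CPM untreated in K562[KRAB]-D9 cells. Its difference in log2 response was -2.36 ± 0.32, with the parental level higher untreated and lower with interferon alpha. TAP1 also responded less in parental cells, with a difference of -1.96 ± 0.23 (log2), where K562[KRAB]-D9 cells averaged 32.0 CPM with interferon alpha and 0.810 CPM untreated. CMPK2 responded more in parental cells, by 1.12 ± 0.08 (log2), and K562[KRAB]-D9 cells averaged 164 CPM with interferon alpha and 44.8 CPM untreated. The untreated levels of these 4 genes thus differed between the lines beside their responses, and the part of those levels in the difference was not tested.

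**Figure D5:**
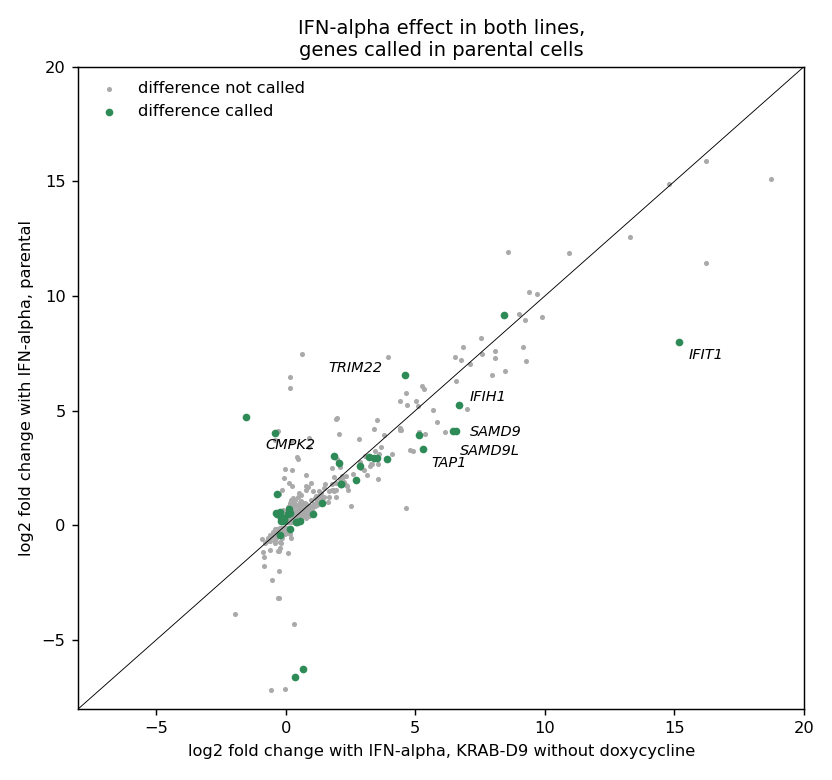
Log2 fold change with interferon alpha over untreated in parental K562 (vertical axis) against that in K562[KRAB]-D9 without doxycycline (horizontal axis) for genes called in parental cells; green points are genes whose difference between lines was called, and the line marks equal responses. SAMD9, SAMD9L and TAP1 lie below the line and CMPK2 lies above it; the position of IFIT1, without untreated counts in K562[KRAB]-D9, depends on the prior count.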

How the data were processed

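PolyA-selected RNA from K562 lines was sequenced by the study with a stranded library kit, per the labels' protocols. The authors deposited 1 table of raw read counts per gene for 18 libraries in 9 groups of 2, with coordinates, lengths and gene types; its values are whole-number counts with no normalization. Per the submitters' processing notes, the tools included cutadapt 2.10, STAR 2.7.8a, FastQC 0.11.9 and featureCounts 2.0.2, with genome build GRCh38.p13. The strand setting of the counting is not given in the sources used here, so values of overlapping genes may share reads.

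From these counts edgeR 4.0.16 (R 4.3.3) fitted 9 group means over all 18 libraries, with TMM scaling, filterByExpr by group and robust quasi-likelihood estimates; 22143 of 41285 genes passed the filter. The contrast of parental cells with interferon alpha over untreated parental cells, and its difference from the same contrast in K562[KRAB]-D9 cells without doxycycline, were tested with Benjamini-Hochberg adjustment over all genes tested and called at an adjusted p below 0.05. Standard errors are the log2 fold change divided by the root of the F statistic, and can understate the counting error of genes with few counts in a group. Levels are TMM-scaled CPM. The fit was tested on simulated data. Depth was 32.7 M to 63 M counts per library.

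The named genes were taken by rule: SAMD9 and SAMD9L, the 12 largest called rises and falls of at least 1 CPM with a gene symbol and groups that did not overlap, the 3 members per list that ranked first by p-value, called receptor, signalling and negative regulator genes, the 8 highest genes without untreated counts, the 3 largest noncoding rises, and the 4 largest differences between lines in each direction; further members of the lists are named to describe them, and a few genes that the rule picks are not reported here. The members and the 40 gene lists were chosen with earlier results of these data known. Lists were described by counts and medians, with no test. Promoter windows come from RefSeq on GRCh38.p14 and were matched by symbol or gene identifier. The alternatives were other scaling (DESeq2 size factors, library totals), other filters, the 4 parental libraries alone, a fit without K562[KRAB]-D9 with interferon alpha, a replicate term, DESeq2 1.42.0 and leaving out each library. Figures were drawn with matplotlib 3.10.9.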

Additional observations from a re-analysis of the deposited data

Results flagged for a closer look

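The response to interferon alpha was tested for a difference between parental K562 and K562[KRAB]-D9 without doxycycline, and 67 genes were called by edgeR's quasi-likelihood test. The values below are log2 responses in parental cells minus those in K562[KRAB]-D9 cells, for the 16 of them that are named. Responses were smaller in parental cells for SAMD9 (-2.42), SAMD9L (-2.36), TAP1 (-1.96), IFIH1 (-1.43), SP110 (-1.01), PARP14 (-0.62), APOL1 (-0.44) and TRIM14 (-0.33). Untreated levels differed beside the response for IFIH1, with 1.80 and 1.43 CPM in parental cells and a mean of 0.537 CPM in K562[KRAB]-D9 cells. For IFIT1 the fitted difference was -7.21, which depends on the prior count because the untreated K562[KRAB]-D9 libraries had no counts; with interferon alpha IFIT1 had 134 and 126 CPM in parental cells and a mean of 87.3 CPM in K562[KRAB]-D9 cells.

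Responses were larger in parental cells for TRIM22 (1.95), CMPK2 (1.12), IFI27 (0.75) and the sterol enzyme gene HMGCS1 (0.38). TRIM22 had 19.7 and 16.1 CPM with interferon alpha and 0.216 and 0.162 CPM untreated in parental cells, against means of 24.8 CPM with interferon alpha and 1.04 CPM untreated in K562[KRAB]-D9 cells. HMGCS1 had 304 and 319 CPM with interferon alpha and 212 and 214 CPM untreated in parental cells, against means of 295 CPM with interferon alpha and 262 CPM untreated in K562[KRAB]-D9 cells.

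ANKEF1 (4.25), IGFL2-AS1 (1.69) and NRG4 (-3.36) differed without being known interferon targets. ANKEF1 had 7.08 and 7.12 CPM with interferon alpha and 6.48 and 7.01 CPM untreated in parental cells, and was not called there, while K562[KRAB]-D9 cells averaged 0.0322 CPM with interferon alpha and 0.456 CPM untreated. Without 1 of the K562[KRAB]-D9 interferon libraries at a time the ANKEF1 difference was 7.71 or 2.84. The NRG4 and IGFL2-AS1 differences each lost their call when some libraries were left out.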

How the results depend on the processing

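Numbers of genes called depended on the fit more than the large rises did. In parental cells 671 genes were called higher, 289 lower, 161 higher over 2-fold and 17 lower over 2-fold; with DESeq2 size factors or library totals as scaling, with no filter or with one of at least 1 CPM in 2 libraries, the rises over 2-fold numbered 149 to 163. The fit on only the 4 parental libraries called 892 higher and 515 lower, of which 646 and 282 were shared with the calls above, and the fit without the K562[KRAB]-D9 interferon group called 885 higher and 448 lower, of which 668 and 289 were shared. The DESeq2 test called 744 higher and 388 lower, with 10 lower over 2-fold. Leaving out each parental library in turn gave 398 to 594 genes higher, 69 to 187 lower, 136 to 152 higher over 2-fold and 4 to 16 lower over 2-fold; the lowest counts came without parental interferon replicate 2, except that of rises over 2-fold, which came without untreated replicate 1, and the remaining library of a group is then assumed to vary like the other groups. The replicate numbers did not pair the samples (correlation of parental deviations -0.109, 5 of 36 group pairs above 0.1): the replicate block called 668 higher and 274 lower, and the crossed pairing, chosen after seeing the data, 692 and 296.

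The difference between lines, 35 genes more positive and 32 more negative in parental cells, gave 86 more positive with no filter, 65 and 61 with the DESeq2 test, 35 and 31 with the replicate block, and 8 to 621 more positive and 12 to 371 more negative with single libraries left out, where the highest counts came without K562[KRAB]-D9 interferon replicate 2. The K562[KRAB]-D9 interferon replicates differed by a chi-square per degree of freedom of 14.1, against 4.33 to 5.56 in the other groups. Of the 16 named differences 5 lost their call without parental interferon replicate 2 and 5 without either untreated K562[KRAB]-D9 library, and the NRG4 difference was -2.58 or -4.72 without these.

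Of 143 named genes 0 reversed under any alternative that gave them a value, and 12 to 20 lost their call with a parental library left out: BTG2, CCND3, HBZ, MT-TV, PITPNA-AS1 and UBL3 in each of the 4 fits, DDIT4, LY6G5C, MYC, NFE2, PIM2 and SPRED3 in 3, C4B, CCNG1, IRF1, KLF1, MT-ND4L, NFKB2, SNHG3, STAT3 and TSPOAP1 in 2, and C3, FAM172A, IL15RA, LMO2, MT-CYB, MYLIP and UTP20 in 1. List medians (log2) moved under these alternatives. With at least 1 CPM in 2 libraries they were 3.06 for antiviral effectors, 1.19 for sensors, 4.14 for ISG15 conjugation, 1.22 for PML bodies, 0.92 for class I, -0.051 for guanylate-binding proteins, 0.20 for chemokines, 0.53 for complement, 0.90 for noncoding targets, 0.35 for globins, 0.010 for myeloid, 0.045 for lymphoid and 0.037 for NF-kB genes. With only the 4 parental libraries they were 3.06 for antiviral effectors, -0.011 for guanylate-binding proteins, 0.90 for noncoding targets and 0.038 for myeloid genes. Without the K562[KRAB]-D9 interferon group they were 0.032 for guanylate-binding proteins and 0.047 for lymphoid genes, and with DESeq2 5.11 for ISG15 conjugation. With single libraries left out they ranged as follows: negative regulators -0.014 to 0.016, antiviral effectors 2.76 to 3.05, sensors 0.72 to 1.27, ISG15 conjugation 4.52 to 5.64, PARP 0.041 to 0.085, class I 0.87 to 0.95, class II 0.30 to 0.76, guanylate-binding proteins 0.0080 to 0.44, death ligands 0.045 to 0.17, chemokines 0.14 to 0.26, immune surface 0.19 to 0.31, complement 0.23 to 0.72, noncoding targets -0.11 to 0.13, globins 0.25 to 0.39, myeloid 0.051 to 0.43, lymphoid 0.14 to 0.51, mitosis -0.13 to -0.11, tryptophan -0.12 to 0.15, ribosome biogenesis -0.039 to -0.0014, NF-kB 0.024 to 0.084 and BCR-ABL1 context 0.00064 to 0.043. The causes of these shifts were not tested.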

Other observations

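The groups in these paragraphs were chosen after their values were seen, so their counts are descriptions. Of 50 replication-dependent histone genes tested 13 rose and 0 fell, with a median of 0.27 (log2), against 3.03% of all genes called higher. H1-2, a linker histone, had 880 and 881 CPM with interferon alpha and 593 and 598 CPM untreated (log2 0.57 ± 0.04), and H2BC12 had 666 and 575 CPM with interferon alpha and 403 and 407 CPM untreated (log2 0.61). Most mRNAs of these genes lack a polyA tail, and the libraries were polyA selected, so the levels cover only part of their transcripts. Of 18 genes of protein folding in the endoplasmic reticulum 9 rose and 0 fell, with a median of 0.17 (log2), again against 3.03% of all genes. HSPA5, the chaperone BiP, had 905 and 918 CPM with interferon alpha and 772 CPM in each untreated library (log2 0.24), and HYOU1 had 362 CPM in each library with interferon alpha and 305 and 297 CPM untreated (log2 0.27).

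Of 85 cytosolic ribosomal protein genes 6 fell and 0 rose, with a median of -0.04 (log2), against 1.31% of all genes called lower. RPL5 had 1173 and 1180 CPM with interferon alpha and 1353 and 1378 CPM untreated (log2 -0.22). Of 54 genes with translation initiation (EIF) symbols 6 fell and 2 rose, against 1.31% and 3.03% of all genes. The 2 were EIF2AK2, the kinase PKR named above, and EIF4EBP1 (log2 0.21), neither of them an initiation factor itself. EIF4B fell, with 663 and 636 CPM with interferon alpha and 726 and 729 CPM untreated (log2 -0.16). ODC1, the first enzyme of polyamine synthesis, had 761 and 752 CPM with interferon alpha and 1005 and 1022 CPM untreated (log2 -0.42 ± 0.04). GMPR, which turns GMP back into IMP, had 149 and 153 CPM with interferon alpha and 55.5 and 56.8 CPM untreated (log2 1.42 ± 0.05).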
